A study of Mus musculus with 10 samples.

Results

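Sinus lymphatic endothelial cells of the mouse axillary lymph node were picked from 1 droplet single-cell library of stromal cells by 4 genes of lymphatic endothelium. A cell was a member when it held at least 3 UMIs (unique molecular identifiers, each standing for 1 captured transcript) of Prox1, Mmrn1, Flt4 and Stab2 together, with at least 2 of these 4 genes detected. It also had to hold no UMI of the leukocyte gene Ptprc, fewer than 3 of the collagen gene Col1a1, and fewer than 3 of Ccl20, Coch and Madcam1 together, which mark the lymphatic cells of the subcapsular sinus floor. By this rule 108 of the 2353 cells used in the stromal library were members, or 4.59% (3.78 to 5.51%, exact Clopper-Pearson 95% interval), and none of the cells used in the other 4 gene libraries was a member (51628 cells used over all 5). The condition of a cell was read from a hashtag antibody, and 25 members came from 4T1, 45 from 67NR, 25 from LPS and 13 from naive mice.

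All mice were wild-type female BALB/C animals aged 8 weeks. The 4T1 and 67NR groups carried mouse mammary carcinoma cells of those names in the 4th mammary fat pad and were taken 18 days later, at a tumour size of 500 mm3. The LPS group had been given lipopolysaccharide, the outer membrane component of Gram-negative bacteria, under the skin 72 hours before, and the naive group was untreated. 4T1 is a line that metastasises, and 67NR, from the same parental tumour, forms primary tumours that do not. The series title places the study around a fibroblast and monocyte axis in tumour-draining nodes that depends on Tlr4, the receptor for lipopolysaccharide. Each condition had 1 hashtag, and nothing ties a cell to a mouse, so a condition is 1 sum of cells from at least 3 pooled mice, with no replicate, and no test is possible.

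Lymph reaches a node through afferent vessels, spreads in the subcapsular sinus and drains through cortical and medullary sinuses, all lined by lymphatic endothelium. Prox1 is the transcription factor that sets lymphatic identity, Flt4 is the receptor for the lymphatic growth factor Vegfc, Mmrn1 encodes a secreted multimerin, and Stab2 is a scavenger receptor for hyaluronan. Ackr4, a decoy receptor that takes up Ccl19, Ccl20 and Ccl21, marks the outer (ceiling) layer of the subcapsular sinus, whereas Marco and Lyve1 are known from the scavenging medullary sinuses. The 5 genes used to find or to check the cells lie in mm10 at chr1:190118035-190170714 on the minus strand (Prox1), chr6:60924976-60989378 on the plus strand (Mmrn1), chr11:49609263-49652739 on the plus strand (Flt4), chr10:86841198-87008025 on the minus strand (Stab2) and chr9:104084157-104126933 on the minus strand (Ackr4).

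The stromal library held 36622159 UMIs over 3507 barcodes. Members had a median of 12457 UMIs (1021 to 34369) and 3907.5 genes. Their medians were 14287 UMIs in 4T1, 12337 in 67NR, 13625 in LPS and 9511 in naive cells, so the naive group was the shallowest as well as the smallest, and summed UMIs came to 337200, 659753, 337397 and 144861. Between 6 and 20 barcodes of the stromal library recurred in another library. The label was checked against markers of the other cells that the library could hold. Haematopoietic markers summed to 1 UMI in 4T1, 6 in 67NR, 6 in LPS and 4 in naive members, with Ptprc, which the rule excluded, and Cd3e, Cd79a and Laptm5 at 0. Plasma cell markers summed to 2, 3, 3 and 1 UMIs, with Ighm and Iglc2 at 0. Pericyte markers summed to 4, 2, 1 and 3 UMIs, with Myh11 at 0, and fibroblast markers to 18, 64, 20 and 10 UMIs, with Pdgfrb at 0.

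Blood endothelial markers were another matter, because 14 of the 108 members went against the label. In these 14 cells the UMIs of Flt1, Cd34 and Ly6c1, which mark blood endothelium, outnumbered those of the 4 lymphatic genes. They held 12 to 126 UMIs of the blood endothelial genes (median 58) and only 3 to 6 of the lymphatic ones (median 3.5). None held a UMI of Ackr4 or Lyve1, and the genes that led them over the other members included Cxcl12, Sparcl1, Nrp1, Rbp7, Igfbp3, Flt1, Ly6c1 and Mecom. They made up 5 of 25 members in 4T1, 1 of 45 in 67NR, 4 of 25 in LPS and 4 of 13 in naive cells, so the naive sum held the highest share of them, 30.8% (9.09 to 61.4%), and the 67NR sum the lowest, 2.22% (0.0562 to 11.8%). The 11 blood endothelial markers summed to 2933 CPM (the UMIs of a gene scaled to a fixed total of UMIs in each sum) in 4T1, 1404 in 67NR, 2605 in LPS and 4239 in naive members, and without the 14 cells to 1539, 1349, 1046 and 785 CPM. Plvap led the 4T1, 67NR and LPS sums with and without the 14 cells. It was detected in 23 of 25 4T1, 40 of 45 67NR, 19 of 25 LPS and 12 of 13 naive members. The sums thus do not measure blood endothelial cells alone. Ratios are therefore given for all 108 members, and calls that changed are set beside their values among the other 94 cells, 20 from 4T1, 44 from 67NR, 21 from LPS and 9 from naive mice.

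**Figure D1:**
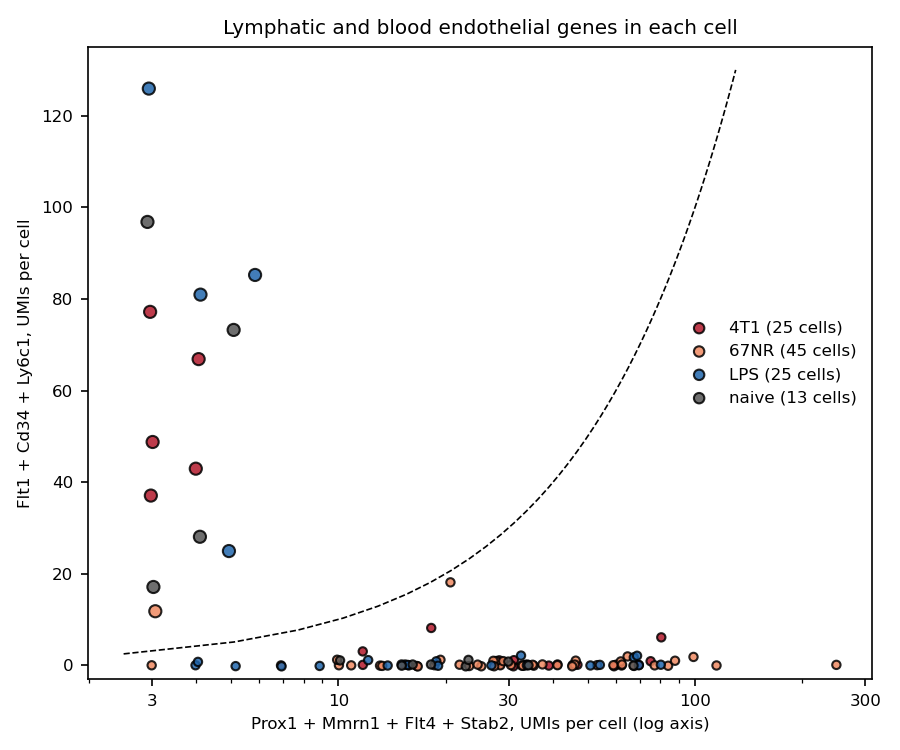
Each point is 1 of the 108 cells, coloured by condition, with UMIs of the 4 lymphatic rule genes on a log axis and UMIs of Flt1, Cd34 and Ly6c1 on the vertical axis, and a dashed line where both are equal (points are shifted slightly so that they do not cover each other). The 14 larger points above the line hold 3 to 6 UMIs of the rule genes and 12 to 126 of the blood endothelial genes, and the remaining 94 hold at most 18 UMIs of the blood endothelial genes, with a median of 0.

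The cells near the limits of the rule show where the label is weakest. Of the 8 members with exactly 3 UMIs of the rule genes 7 were among the 14, as were 4 of the 6 members with 4 UMIs, and all 11 cells just outside, at 2 UMIs, were of the same kind. None of the 87 members with at least 10 UMIs of the rule genes was. Judged only by the genes that set it, the boundary towards the sinus floor was cleaner. Of the members 98 held no UMI of Ccl20, Coch and Madcam1, 6 held 1 and 4 held 2, against 5 cells just outside with 3, none with 4 and 3 with 5, while 48 of the 57 floor cells held at least 12.

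The 4 rule genes were spread widely among the cells, and these values describe the choice of cells rather than test it. All 4 were detected in 55 members, 3 in 31 and 2 in 22. Prox1 ranged from 0 to 53 UMIs per cell in 4T1 (median 8), 0 to 53 in 67NR (median 11), 0 to 18 in LPS (median 4) and 1 to 22 in naive cells (median 4). Mmrn1 ranged from 0 to 29 UMIs in 4T1 (median 6), 0 to 40 in 67NR (median 8), 0 to 25 in LPS (median 5) and 0 to 13 in naive cells (median 2). Every condition overlapped the others for both genes. Stab2 ranged from 0 to 53 UMIs in 4T1 (median 3), 0 to 168 in 67NR (median 8), 0 to 42 in LPS (median 1) and 0 to 45 in naive cells (median 0). Flt4 had the fewest UMIs in sum of the 4 rule genes, with 0 to 8 in 4T1, 0 to 15 in 67NR, 0 to 10 in LPS and 0 to 3 in naive cells. Ackr4, which the rule did not use, was found in 65 members and ranged from 0 to 28 UMIs in 4T1 (median 3), 0 to 55 in 67NR (median 3), 0 to 45 in LPS (median 1) and 0 to 18 in naive cells (median 0). Without the 14 cells led by blood endothelial genes the Stab2 medians were 7.5, 8.5, 2 and 7 UMIs in the same order of conditions. Those of Ackr4 were then 5.5, 3, 2 and 8 UMIs, with naive cells the highest. By CPM of the sums Ackr4 stood at 510 in 4T1, 702 in 67NR, 462 in LPS and 463 in naive cells, an order in which 4T1, LPS and naive were not told apart by their counting intervals. These sums include the 14 cells, which held no Ackr4 UMI.

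**Figure D2:**
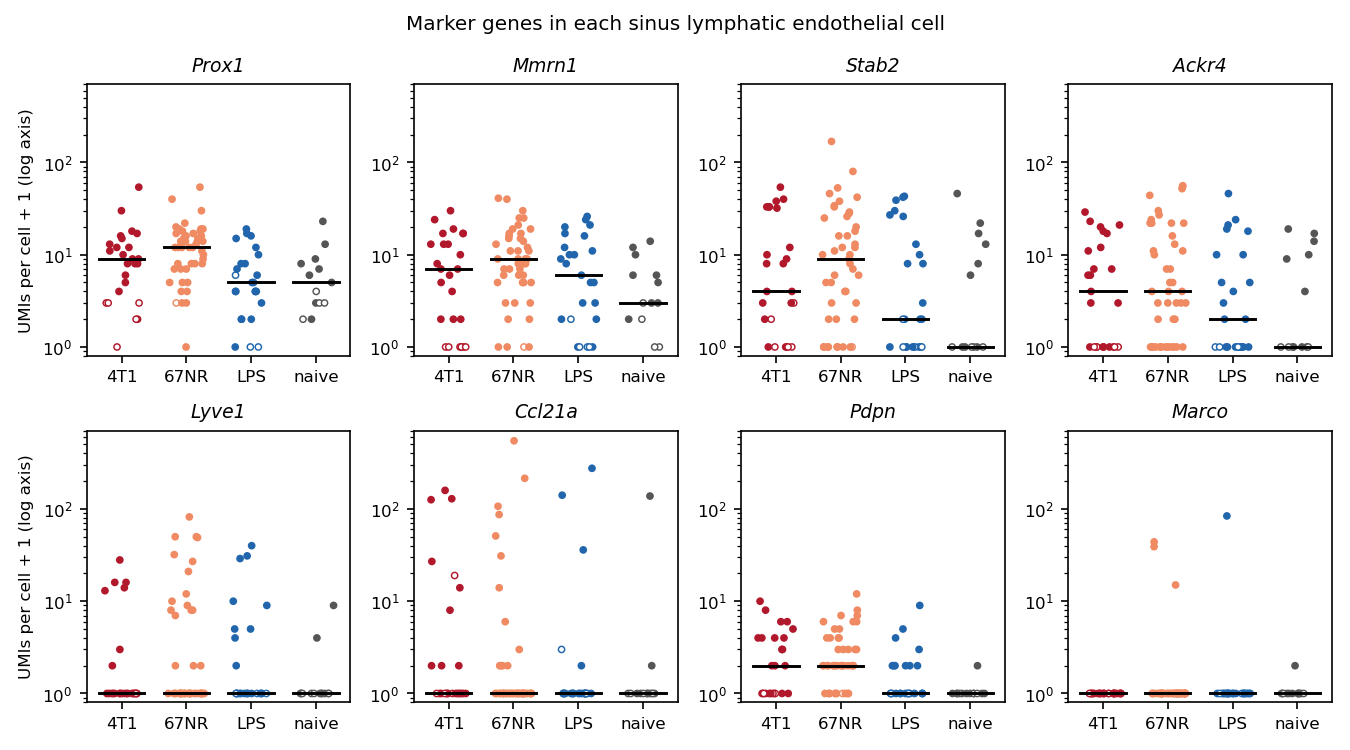
UMIs per cell plus 1, on a log axis, of 8 lymphatic genes in each of the 108 cells, by condition, with a bar at the median and open circles for the 14 cells led by blood endothelial genes. Prox1 and Mmrn1 were spread over most cells of every condition, whereas Lyve1 and Ccl21a had a median of 0 UMIs in each condition and rested on a minority of cells.

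Set beside 3 other classes picked by similar rules from the same library, the sinus cells had a profile of their own. The other classes were 57 lymphatic cells of the sinus floor, 641 blood endothelial cells and 757 fibroblasts, and levels are CPM of UMIs summed over all conditions, given as a description because genes chose the cells. Ackr4 stood at 580 CPM in sinus cells, against 5.99 in floor, 2.26 in blood endothelial cells and 3.56 in fibroblasts. It was detected in 60.2% of sinus cells (median 12457 UMIs per cell), against 10.5% of floor cells and 3.17% of fibroblasts, which were sequenced deeper, at medians of 20623 and 15115 UMIs. Prox1, which fibroblasts should lack, was detected in 1.98% of them. This share is no check, because the rules for fibroblasts and blood endothelial cells left out cells with more than a trace of the lymphatic rule genes. Low levels of Prox1, Mmrn1, Flt4 and Stab2 in those classes were thus set in advance. Stab2 stood at 967 CPM in sinus, 85.3 in floor and 1.78 in blood endothelial cells. Klrb1f, a C-type lectin-like receptor gene known from lymphocytes, stood at 190 CPM in sinus, 15.7 in floor and 0.49 in blood endothelial cells. Cldn5, the tight junction claudin of endothelium, stood at 1449 CPM in sinus, 263 in floor and 170 in blood endothelial cells. Other genes with the highest margin over all 3 classes were Pkhd1l1, Parm1, Pgm5, Ctnnal1 and Slit2.

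Of the 4784 genes with at least 100 UMIs in sinus and floor cells together, 435 were at least 2-fold higher in sinus than in floor cells and on that side in all 4 conditions, and 248 of the same 4784 were lower. Some of the higher genes were carried by the 14 cells led by blood endothelial genes, and no count was made without them. Without these cells sinus levels fell from 132 to 2.33 CPM for Sparcl1, 186 to 12.4 for Ly6c1 and 312 to 14.0 for Cxcl12. The fatty acid uptake receptor Cd36 stood at 1028 CPM in sinus and 29.2 in floor cells, and the fatty acid carrier Fabp4 at 2094 and 124 CPM. Without the 14 cells Cd36 stood at 1030 CPM in sinus cells. Fabp4 UMIs fell from 996 to 454 in 4T1 and from 787 to 760 in 67NR. They fell from 723 to 480 in LPS and from 592 to 74 in naive members. The lower genes included those of the rule and Glycam1, the sulphated ligand of L-selectin, at 168 CPM in sinus and 16486 in floor cells. Bmp2, a secreted morphogen, stood at 19.6 CPM in sinus and 1478 in floor cells, and Cxcl9, a chemokine for activated T cells, at 26.4 and 1828 CPM. Lyve1 and Pdpn, which lymphatic endothelium shares, were close in these pooled sums, at 395 and 498 CPM for Lyve1 and at 111 and 93.6 CPM for Pdpn in sinus and floor cells. Lyve1 was detected in 87.7% of the deeper floor cells, against 28% of 4T1, 37.8% of 67NR, 36% of LPS and 15.4% of naive sinus cells. Pdpn had 1 UMI in the naive sinus cells. Ccl21a, the chemokine that guides dendritic cells and T cells, was at 1437 CPM in sinus and 12.7 in floor cells. This level came from few cells, since 17 sinus cells held 98.8% of its UMIs there. Ccl21a was detected in 27.8% of sinus and 24.6% of floor cells. Its reads cannot be told from those of near-identical Ccl21 gene copies.

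**Figure D3:**
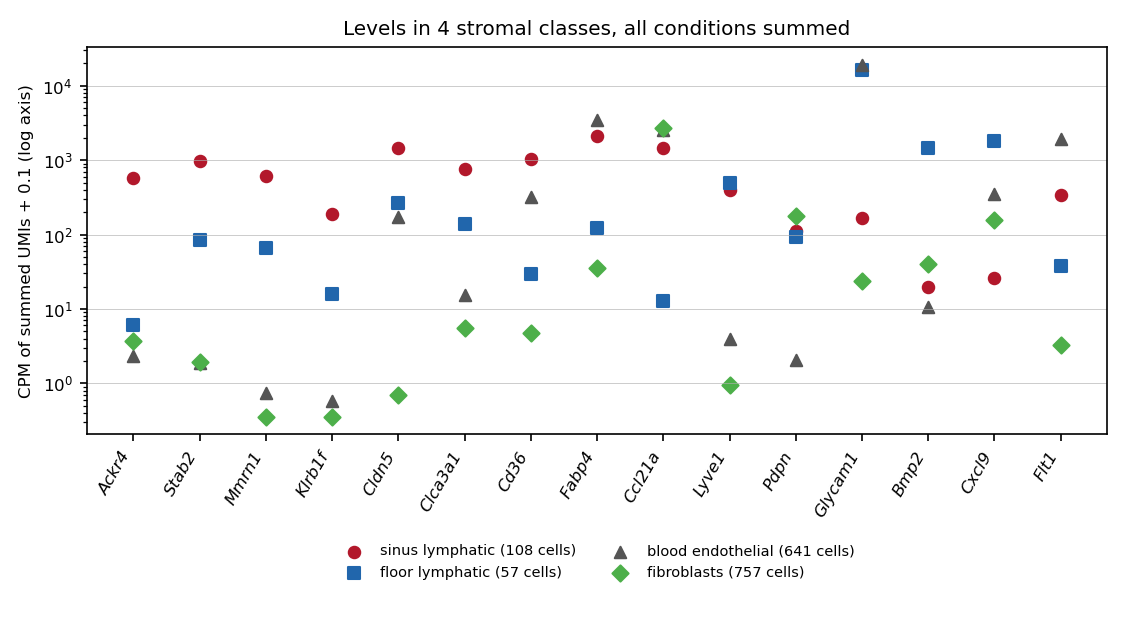
CPM of summed UMIs plus 0.1, on a log axis, of 15 genes in sinus lymphatic, floor lymphatic and blood endothelial cells and fibroblasts. Sinus cells were highest for Ackr4, Stab2, Mmrn1, Klrb1f and Cldn5, and floor cells for Lyve1, Bmp2 and Cxcl9, while Flt1 stood at 337 CPM in sinus cells and at 18.6 CPM without the 14 cells led by blood endothelial genes.

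The 94 cells were themselves a mixture, which was described by limits set after their values were seen, so that the sizes below carry no test. Cells with at least 3 Ackr4 UMIs and few of Ccl21a or Marco numbered 46, of which 11 came from 4T1, 21 from 67NR, 8 from LPS and 6 from naive mice. They were led by Ackr4 itself and by Pglyrp1, Stmn1, Car8, Chrm3, C1qtnf7 and Gdf10. Cells with at least 10 Ccl21a UMIs numbered 17 among all members and held 98.8% of its UMIs. The 16 of them outside the cells led by blood endothelial genes, 5 from 4T1, 7 from 67NR, 3 from LPS and 1 from naive mice, had Ccl21a at 9911 CPM, against 6.92 in the 46 cells with Ackr4. They were also led by Reln, Adamtsl1, Fgl2, Hmcn1, Plau and Abi3bp. Reln, a secreted glycoprotein known from collecting lymphatic vessels, stood at 176 CPM there and 1.38 CPM in the cells with Ackr4. Only 4 cells, 3 from 67NR and 1 from LPS, had at least 10 UMIs of Marco, a scavenger receptor known from macrophages and medullary sinuses, and they held 99.4% of its UMIs. These 4 were led by Mt1, Ltc4s, Il33, Msr1 and Ly6a, with Ly6a at 5634 CPM against 1336 in the cells with Ackr4. The remaining 28 cells passed none of these limits, at a lower median depth of 9362 UMIs. Il4i1 was detected in 21.4% of them and stood at 188 CPM, against 4.15 CPM in the cells with Ackr4 and 696 in floor cells. Glycam1 stood at 478, 119 and 16486 CPM in the same order. Whether some of the 28 are floor cells was not tested.

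As a share of the lymphatic cells, sinus and floor together, the sinus cells were 25 of 42 in 4T1, or 59.5% (43.3 to 74.4%), 45 of 67 in 67NR, or 67.2% (54.6 to 78.2%), 25 of 29 in LPS, or 86.2% (68.3 to 96.1%), and 13 of 27 in naive nodes, or 48.1% (28.7 to 68.1%). LPS was the highest and naive the lowest, and the exact intervals of those 2 shares did not overlap. Without the 14 cells the shares were 54.1%, 66.7%, 84.0% and 39.1%. Floor cells numbered 17 in 4T1, 22 in 67NR, 4 in LPS and 14 in naive nodes. These intervals cover counting error only. How cells were released and sorted is not given per condition, so yield and abundance cannot be told apart.

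To ask how the cells differed between conditions, UMIs were summed per condition and each of the 2960 genes with at least 100 UMIs over the 4 sums was compared as the log2 ratio of its CPM over naive, with an exact conditional binomial 95% interval that covers counting error only. A gene was called where the ratio was at least 2-fold and its interval lay beyond 0. In 4T1 216 genes were called higher (7.3%) and 82 lower (2.77%), or 10.1% in all. In 67NR 259 were called higher (8.75%) and 111 lower (3.75%), or 12.5% in all, and in LPS 164 were called higher (5.54%) and 136 lower (4.59%), or 10.1% in all. Counts of genes called on the lists below are to be read against these shares, and no list was tested. Many calls leaned on a single cell. In 112 of the 298 calls in 4T1, 116 of 370 in 67NR and 145 of 300 in LPS, 1 cell held over 25% of the UMIs of the higher group. Among the 94 cells 2563 genes could be compared, and the shares called higher were 8.23% in 4T1, 8.74% in 67NR and 5.74% in LPS, with 3.24%, 1.83% and 4.88% called lower. Of the calls made with all cells 142 in 4T1, 150 in 67NR and 158 in LPS were made among the 94 as well. Among the 52 cells with at least 3 Ackr4 UMIs, 6 of them naive, 1602 genes could be compared, and 8.24%, 8.74% and 6.43% were called higher and 3.87%, 1.87% and 6.55% lower. All 3 comparisons share the naive sum of 13 cells, or 9 without the blood endothelial ones, so their ratios are not independent and a few naive cells can set a value. The median ratio of all genes was 0.12, 0.15 and 0.10.

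None of the 4 rule genes, nor Ackr4 or Ccl21a, was called in any of the 3 comparisons with all 108 cells or with the 94. For the rule genes, which chose the cells, this is a description and no result between conditions. Among cells with at least 3 Ackr4 UMIs, where naive cells held 1 Ccl21a UMI, Ccl21a was called higher in 4T1 at 6.36 (3.87 to 11.67) and in LPS at 5.79 (3.29 to 11.10). These calls were carried by single cells, with 128 and 158 Ccl21a UMIs in 4T1 and 140 and 35 in LPS. With all 108 cells the ratio of Ackr4 was 0.14 (-0.27 to 0.57) in 4T1, 0.60 (0.23 to 0.99) in 67NR and 0.00 (-0.42 to 0.43) in LPS. The 14 cells led by blood endothelial genes held no Ackr4 UMI. Without them Ackr4 kept 172 UMIs in 4T1, 463 in 67NR, 156 in LPS and 67 in naive cells. Summed UMIs of all genes were then 273526, 652400, 274291 and 89130, the last down from 144861. Among the 94 cells the Ackr4 level of 67NR, 4T1 or LPS thus no longer lay above that of naive cells. Other genes of lymphatic identity were called. Of the 18 pan-lymphatic genes measured 7 were called higher in 4T1, 8 in 67NR and 4 in LPS and none lower, with medians of 0.60, 0.86 and 0.52, and among the 94 cells 4, 5 and 3 were called higher and 0, 1 and 0 lower. The list holds the 4 rule genes, so its medians and its genes not called depend in part on the choice of cells. Pdpn, the mucin-like ligand of platelet Clec2 that names lymphatic endothelium, had the highest ratio in 4T1 among the genes named by rule. It had 49 UMIs in 14 of 25 4T1 cells, 91 in 34 of 45 67NR cells and 23 in 10 of 25 LPS cells, against 1 UMI in 1 of 13 naive cells. No naive cell held more than 1 UMI, and every other group also held cells at 0. The ratios were 4.40 (1.85 to 9.73) in 4T1, 4.32 (1.81 to 9.64) in 67NR and 3.30 (0.68 to 8.67) in LPS, and 4.00, 3.64 and 2.90 among the 94 cells. With each cell thinned to 1000 UMIs, Pdpn was kept in 16% of 4T1, 15.6% of 67NR and 12% of LPS cells and in 0 of 13 naive cells, which allows a share of up to 23.1%, so at equal depth a difference was not detectable.

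Among receptors, Gpr182 and Nrp2 were called higher in all 3 comparisons, and Flt4 in none. Gpr182, an atypical chemokine receptor of sinus endothelium, ranged from 0 to 21 UMIs per cell in 4T1 (median 1), 0 to 19 in 67NR (median 2), 0 to 9 in LPS (median 0) and 0 to 2 in naive cells (median 0). Its highest cells in every treated group lay far above the 2 UMIs of the highest naive cell, but naive cells were fewer and shallower, which lowers a highest count. The ratios were 3.52 (2.12 to 5.42) in 4T1, 2.93 (1.54 to 4.83) in 67NR and 2.14 (0.67 to 4.08) in LPS, and 4.46, 3.69 and 3.20 among cells with at least 3 Ackr4 UMIs. Nrp2, the coreceptor of Flt4 for Vegfc, ranged from 0 to 17 UMIs in 4T1 (median 4), 0 to 25 in 67NR (median 3), 0 to 13 in LPS (median 1) and 0 to 4 in naive cells (median 0). Its ratios were 2.16 (1.31 to 3.15), 1.77 (0.93 to 2.75) and 1.52 (0.63 to 2.53), and among the 94 cells 3.10, 2.64 and 2.49. Flt4 itself, a rule gene whose values helped to choose the cells, stayed uncalled at 0.78, 0.82 and 0.90, with intervals from -0.05, 0.05 and 0.07 upward. Calcrl, the adrenomedullin receptor, was called higher in 4T1 at 1.11 (0.56 to 1.71) and in 67NR at 1.02 (0.49 to 1.60) but stood at 0.93 in both among the 94 cells, under 2-fold, and at 0.30 in LPS. Of the 8 genes of the Vegf and lymphangiogenic list 2 were called higher in 4T1, 2 in 67NR and 1 in LPS, and 0, 1 and 0 lower. The transcription factor Maf was called higher in 4T1 at 1.19 and in 67NR at 1.68, and stood at 0.67 in LPS. Maf was called among the 94 cells in 67NR, at 1.04, but not in 4T1, at 0.82.

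Scavenging genes were called mostly upward, with a dependence on few cells for some. Of 11 genes of scavenger receptors and lysosome 4 were called higher in 4T1, 6 in 67NR and 4 in LPS, and 2, 1 and 1 lower, with medians of 0.37, 1.03 and 0.75. Among the 94 cells 4, 4 and 3 of 10 were called higher and none lower. Lyve1, the hyaluronan receptor, was found in 7 of 25 4T1 cells (highest 27 UMIs), 17 of 45 67NR cells (highest 81) and 9 of 25 LPS cells (highest 39), against 2 of 13 naive cells (highest 8). Its median cell had 0 UMIs in every condition. The ratios were 1.73 (0.82 to 2.79) in 4T1, 2.85 (2.00 to 3.87) in 67NR and 2.30 (1.41 to 3.34) in LPS, but among cells with at least 3 Ackr4 UMIs the 4T1 ratio was -0.81 and the others 1.29 and 1.51. Stab1, the relative of Stab2, had ratios of 1.83 (1.03 to 2.75), 1.58 (0.79 to 2.47) and 1.08 (0.24 to 2.03), of which the 67NR and LPS ones were not called among the 94 cells (0.99 and 0.74). Marco had 0 UMIs in 4T1, 95 in 3 cells of 67NR and 83 in 1 cell of LPS, against 1 UMI in naive cells, so that its calls in 67NR and LPS rested on the 4 cells described above.

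Lgmn, the lysosomal protease legumain, was detected in 19 of 25 4T1 cells, 35 of 45 67NR cells and 17 of 25 LPS cells, against 4 of 13 naive cells. Its ratios were 2.17 (1.13 to 3.43), 2.13 (1.12 to 3.37) and 1.33 (0.24 to 2.63), and among the 94 cells 3.10, 2.87 and 2.19. Ctsd, cathepsin D, a gene outside the list that was picked after its values were seen, had ratios of 1.50, 1.81 and 1.49, and among the 94 cells 1.61, 1.68 and 1.56. Slc9a9, a sodium and proton exchanger of endosomes, was named by rule in both tumour groups, with 2.41 (1.65 to 3.28) in 4T1 and 3.13 (2.40 to 3.98) in 67NR, and had 2.32 (1.56 to 3.19) in LPS. In naive cells 12 of its 15 UMIs came from 1 cell. Cmah, which makes the sialic acid N-glycolylneuraminic acid, ranged from 0 to 53 UMIs in 4T1 (median 8), 0 to 49 in 67NR (median 4), 0 to 24 in LPS (median 2) and 0 to 2 in naive cells (median 0). The ratios of Cmah were 3.76 (2.82 to 4.90), 3.29 (2.35 to 4.43) and 2.32 (1.34 to 3.49), and among the 94 cells 3.27, 2.61 and 1.92, and it was called in both sets.

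**Figure D4:**
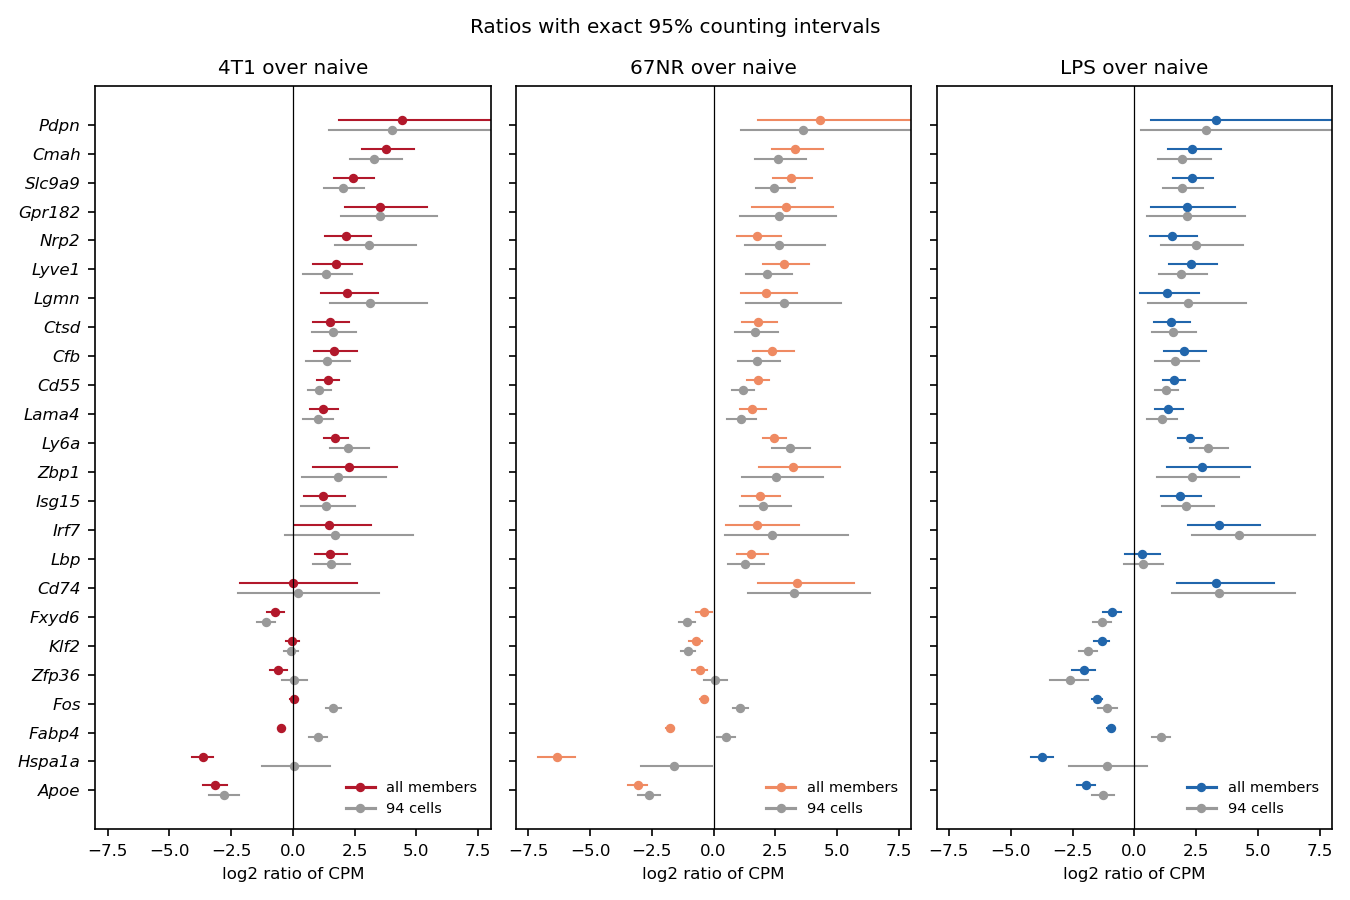
Log2 ratios of CPM over naive with exact 95% counting intervals for 24 genes, in 3 panels for 4T1, 67NR and LPS, in colour for all 108 cells and in grey for the 94 cells without those led by blood endothelial genes (intervals that pass 8 are drawn to the edge). Ratios of Cmah, Nrp2, Lgmn and Ly6a lay above 0 in all 3 panels for both sets, Apoe lay below, and Fos, Fabp4 and Hspa1a moved with the set of cells.

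Most complement genes measured were called higher. Of 6 genes measured on the acute phase and complement list 4 were called higher in 4T1, 5 in 67NR and 4 in LPS, none lower, with medians of 1.47, 2.05 and 1.68, and the counts were the same among the 94 cells, where the medians were 1.10, 1.36 and 1.33. Cfb, the protease of the alternative pathway, ranged from 0 to 18 UMIs in 4T1 (median 3), 0 to 31 in 67NR (median 4), 0 to 32 in LPS (median 2) and 0 to 5 in naive cells (median 1). Its ratios were 1.67 (0.86 to 2.59), 2.35 (1.58 to 3.24) and 2.00 (1.20 to 2.91). Cd55, which speeds the decay of complement convertases on the cell's own surface, had 881 CPM in 4T1, 1137 in 67NR and 996 in LPS, against 331 in naive cells. Its ratios of 1.41 (0.97 to 1.88), 1.78 (1.36 to 2.23) and 1.59 (1.15 to 2.06) fell short of 2-fold among the cells with at least 3 Ackr4 UMIs, at 0.67, 0.95 and 0.47. C3, the central component, was called higher in 67NR at 2.21 (0.94 to 3.86) and LPS at 2.39 (1.09 to 4.06) and stood at 0.55 (-0.95 to 2.34) in 4T1. Serpina3g, a serpin whose family of close copies makes its count uncertain, was called higher in all 3, at 2.21, 2.23 and 1.78.

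Of 13 matrix and basement membrane genes 5 were called higher in 4T1, 6 in 67NR and 3 in LPS, and 0, 0 and 1 lower, with medians of 0.97, 0.75 and 0.59. Among the 94 cells 5, 6 and 2 were called higher and 2, 0 and 1 lower. Lama4, the endothelial laminin chain, was detected in 24 of 25 4T1 cells, 43 of 45 67NR cells and 22 of 25 LPS cells, against 10 of 13 naive cells, with medians of 5, 5, 5 and 2 UMIs. Its ratios were 1.24 (0.70 to 1.82), 1.56 (1.05 to 2.12) and 1.38 (0.84 to 1.96). Nid1, the linker between laminin and collagen IV, had 1.78 (0.83 to 2.90), 2.01 (1.10 to 3.10) and 1.39 (0.41 to 2.52), and Mmp14, a membrane-bound matrix protease, 1.59 (0.23 to 3.30), 2.16 (0.89 to 3.82) and 1.41 (0.04 to 3.13). Nid1 was not called in LPS among the 94 cells, at 1.00, nor Mmp14 in 4T1 and LPS, at 1.10 and 0.96. Fn1, fibronectin, went the other way in LPS at -1.09 (-1.65 to -0.52), and among the 94 cells was called lower in 4T1 as well, at -1.06. Thbs1, an antiangiogenic matrix protein, was named by rule in 67NR at 3.42 (2.18 to 5.06) with 244 UMIs in 27 of 45 cells, against 5 UMIs in 4 of 13 naive cells.

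Genes of the type I interferon response were called higher, and none lower, in all 3 comparisons. Of 11 genes measured 3 were called higher in 4T1, 7 in 67NR and 6 in LPS, with medians of 0.71, 1.09 and 1.17, and among the 94 cells 2, 4 and 5 with medians of 0.26, 0.96 and 0.98. Irf7, the transcription factor that amplifies the response, ranged from 0 to 6 UMIs per cell in 4T1 (median 0), 0 to 9 in 67NR (median 1), 0 to 23 in LPS (median 3) and 0 to 2 in naive cells (median 0). The LPS cells were the highest, and their median lay above the highest naive cell, in counts not scaled for the lower depth of naive cells. Its ratio was 3.44 (2.17 to 5.08) in LPS, 1.78 (0.49 to 3.44) in 67NR and 1.46 (0.09 to 3.18) in 4T1, where it was not called among the 94 cells. Isg15, a ubiquitin-like modifier, was detected in 15 of 25 4T1 cells, 38 of 45 67NR cells and 19 of 25 LPS cells, against 5 of 13 naive cells. Its ratios were 1.22 (0.44 to 2.09), 1.87 (1.14 to 2.70) and 1.85 (1.09 to 2.69), and 1.32, 2.00 and 2.08 among the 94 cells. Zbp1, a sensor of Z-form nucleic acid that interferon induces, was named by rule in all 3, at 2.27 (0.82 to 4.21), 3.22 (1.84 to 5.11) and 2.76 (1.33 to 4.68). Bst2, the membrane tether of enveloped viruses, had 866 CPM in 4T1, 1294 in 67NR and 1369 in LPS, against 607 in naive cells. It was called in 67NR at 1.09 and LPS at 1.17 but not among the 94 cells, at 0.64 and 0.93.

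Cxcl10, the interferon-induced chemokine for activated T cells, led the named genes in LPS, with 66 UMIs in 8 of 25 cells and at most 15 in 1 cell, against 1 UMI in naive cells, and a ratio of 4.82 (2.30 to 10.15). In the tumour groups it was carried by single cells, which held 60 of its 69 UMIs in 4T1 and 130 of its 195 UMIs in 67NR. The sequences before the starts of Cxcl10, Isg15 and Bst2 show what these genes share beside their values. They are the 250 bases before the RefSeq start (GRCm38.p6, minus strand, written 5′ to 3′ on the gene's strand) at chr5:92348890-92349139, chr4:156200819-156201068 and chr8:71537473-71537722, and capitals mark matches of GAAANNGAAA, a core of the interferon-stimulated response element.
Cxcl10: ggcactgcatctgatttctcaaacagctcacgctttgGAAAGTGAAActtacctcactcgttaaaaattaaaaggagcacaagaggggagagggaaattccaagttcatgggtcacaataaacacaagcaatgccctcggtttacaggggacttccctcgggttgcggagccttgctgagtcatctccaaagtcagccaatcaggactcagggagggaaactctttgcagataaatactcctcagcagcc
Isg15: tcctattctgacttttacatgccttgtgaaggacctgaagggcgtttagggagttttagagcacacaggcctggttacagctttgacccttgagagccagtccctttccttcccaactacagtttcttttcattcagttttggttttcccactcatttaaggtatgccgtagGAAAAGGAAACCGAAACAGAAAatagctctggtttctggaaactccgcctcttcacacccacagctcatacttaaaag
Bst2: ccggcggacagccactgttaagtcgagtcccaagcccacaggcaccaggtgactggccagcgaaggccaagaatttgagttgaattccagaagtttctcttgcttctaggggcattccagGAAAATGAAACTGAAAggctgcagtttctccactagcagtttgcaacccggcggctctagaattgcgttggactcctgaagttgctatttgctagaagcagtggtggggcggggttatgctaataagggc
Cxcl10 holds 1 match, 213 bases before the start, Isg15 holds 3 that overlap, beginning 78, 72 and 66 bases before it, and Bst2 holds 2 that overlap, at 130 and 124 bases. On either strand 978 of 32851 such windows, or 2.98%, hold a match. Of the 19 genes of the interferon list 15 have a window and 7 of those a match. Irf7, Ifi35, Ifi44 and Xaf1, which were called in LPS, have a window without one, so a match is a description of these letters and no more.

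Of 10 genes of class I antigen presentation 2 were called higher in 4T1, 2 in 67NR and 4 in LPS and none lower, with medians of 0.47, 0.91 and 0.87. With the 94 cells 2 were called higher in each. Tap2, which carries peptides into the endoplasmic reticulum, had ratios of 1.18 (0.24 to 2.26), 1.16 (0.27 to 2.20) and 1.18 (0.23 to 2.26). H2-K1, a class I heavy chain whose family copies share sequence, had 3013 CPM in 4T1, 3882 in 67NR and 4306 in LPS, against 2064 in naive cells, and was called in LPS at 1.06 (0.88 to 1.25), with ratios of 0.55 in 4T1 and 0.91 in 67NR. In LPS neither Tap2, at 1.06 with an interval from -0.10, nor H2-K1, at 0.83, was called among the 94 cells. Of the class II pathway Cd74, the invariant chain, and H2-Ab1 were measured. Cd74 was found in 5 of 25 4T1 cells (highest 3 UMIs), 16 of 45 67NR cells (highest 46) and 11 of 25 LPS cells (highest 19), against 2 of 13 naive cells (highest 2). Its ratio was 3.37 (1.79 to 5.66) in 67NR and 3.32 (1.72 to 5.64) in LPS but 0.00 (-2.13 to 2.59) in 4T1. The haematopoietic markers, at 1, 6, 6 and 4 UMIs in the 4 sums, are given above, and their part in this value was not tested.

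Chemokine and lipopolysaccharide genes gave few values. Of 8 chemokine and decoy receptor genes 3 were called higher in 4T1, 3 in 67NR and 2 in LPS, and 1, 1 and 0 lower. Ackr2, the decoy receptor that clears inflammatory CC chemokines, had 43 UMIs in 11 of 25 4T1 cells, 83 in 23 of 45 67NR cells and 14 in 5 of 25 LPS cells, against 3 in 2 of 13 naive cells. Its ratio was 2.62 (0.98 to 4.96) in 4T1, 2.60 (1.01 to 4.91) in 67NR and 1.00 (-0.84 to 3.44) in LPS, where it was not called. Ccl2, the monocyte chemokine, was called lower in 4T1 at -1.48 (-2.57 to -0.41) and higher in 67NR at 1.60 and in LPS at 1.51, but 1 cell held 57.7% of its UMIs in 67NR, 1 cell 58.8% in LPS and 1 cell 77.8% in naive mice. Tlr4 had 4 UMIs in 4T1, 1 in 67NR, 6 in LPS and 2 in naive members, and Cd14 1, 1, 0 and 0, too few to compare. Ly96, the partner of Tlr4, had 8, 27, 10 and 5 UMIs. Lbp, which hands lipopolysaccharide to that receptor, was the 1 gene of its list with enough UMIs, with ratios of 1.52 (0.89 to 2.20) in 4T1, 1.53 (0.93 to 2.20) in 67NR and 0.32 (-0.36 to 1.06) in LPS. Sema3a, a guidance ligand that lymphatic cells secrete, had a like order, at 1.94 (1.11 to 2.89), 1.88 (1.08 to 2.81) and 0.47 (-0.45 to 1.49), and so did the alarmin Il33, at 1.69, 1.92 and -0.22.

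In LPS cells immediate early genes were called lower. Of 12 such genes, which tissue dissociation is known to induce, 7 were called lower in LPS, with a median of -1.03, against 1 in 67NR (median -0.37) and none in 4T1 (median 0.02). Fos ranged from 0 to 289 UMIs in 4T1 (median 22), 0 to 150 in 67NR (median 17), 0 to 136 in LPS (median 1) and 0 to 154 in naive cells (median 11). The LPS cells were low as a group but overlapped the others. The Fos ratio was -1.52 (-1.72 to -1.31) in LPS and -1.10 among the 94 cells, whereas in 4T1 it was 0.03 (-0.14 to 0.19) with all cells and 1.63 (1.33 to 1.95) among the 94, and in 67NR -0.40 and 1.08. Zfp36, which destabilises inflammatory mRNAs, was lower in LPS at -2.04 (-2.50 to -1.59) and at -2.62 among the 94 cells. Klf2, the transcription factor induced by laminar flow, had 1231 CPM in 4T1, 756 in 67NR and 501 in LPS, against 1256 in naive cells. Its ratio in LPS was -1.33 (-1.64 to -1.02), and -1.87 among the 94 cells and -2.27 among cells with at least 3 Ackr4 UMIs, whereas 4T1 stood at -0.03. In 67NR the Klf2 ratio was -0.73 (-0.98 to -0.48), and -1.04 (-1.31 to -0.76), a call, among the 94 cells. In all, among the 94 cells 6 of the 12 immediate early genes were called higher in 4T1, 3 higher in 67NR and 5 lower in LPS.

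Other lists called lower lost most of these calls without the 14 cells. Of 7 blood endothelial markers measured 2 were called lower in 4T1, 5 in 67NR and 3 in LPS, and of 11 heat shock genes 4, 6 and 6 were, while among the 94 cells 0, 0 and 2 of 10 heat shock genes were. Of the blood endothelial markers 3 could be compared among the 94 cells, with 1, 2 and 0 called higher and none lower, which is partly fixed by the choice, since 3 of these markers separated the 14 cells. Those called higher were Plvap in 4T1, and Plvap and Emcn in 67NR. Hspa1a, an inducible heat shock chaperone whose reads can be split with its near copy Hspa1b, had a ratio of -3.64 in 4T1 with all cells and 0.03 among the 94. Fabp4 likewise turned round in 67NR, at -1.78 (-1.93 to -1.62) with all cells and 0.49 (0.14 to 0.85) among the 94. Of 9 genes of lipid handling 4 were called lower in 4T1, 3 in 67NR and 2 in LPS. Of those Apoe, the lipoprotein ligand, was called lower in all 3, for the 108 cells and for the 94. It ranged from 0 to 10 UMIs in 4T1 (median 1), 0 to 41 in 67NR (median 0), 0 to 20 in LPS (median 1) and 0 to 78 in naive cells (median 5). Apoe had 47 UMIs in 14 of 25 4T1 cells, 96 in 22 of 45 67NR cells and 107 in 16 of 25 LPS cells, against 178 in 11 of 13 naive cells. The Apoe ratios were -3.14 (-3.64 to -2.67) in 4T1, -3.08 (-3.45 to -2.71) in 67NR and -1.95 (-2.31 to -1.60) in LPS, and -2.77, -2.61 and -1.26 among the 94 cells.

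**Figure D5:**
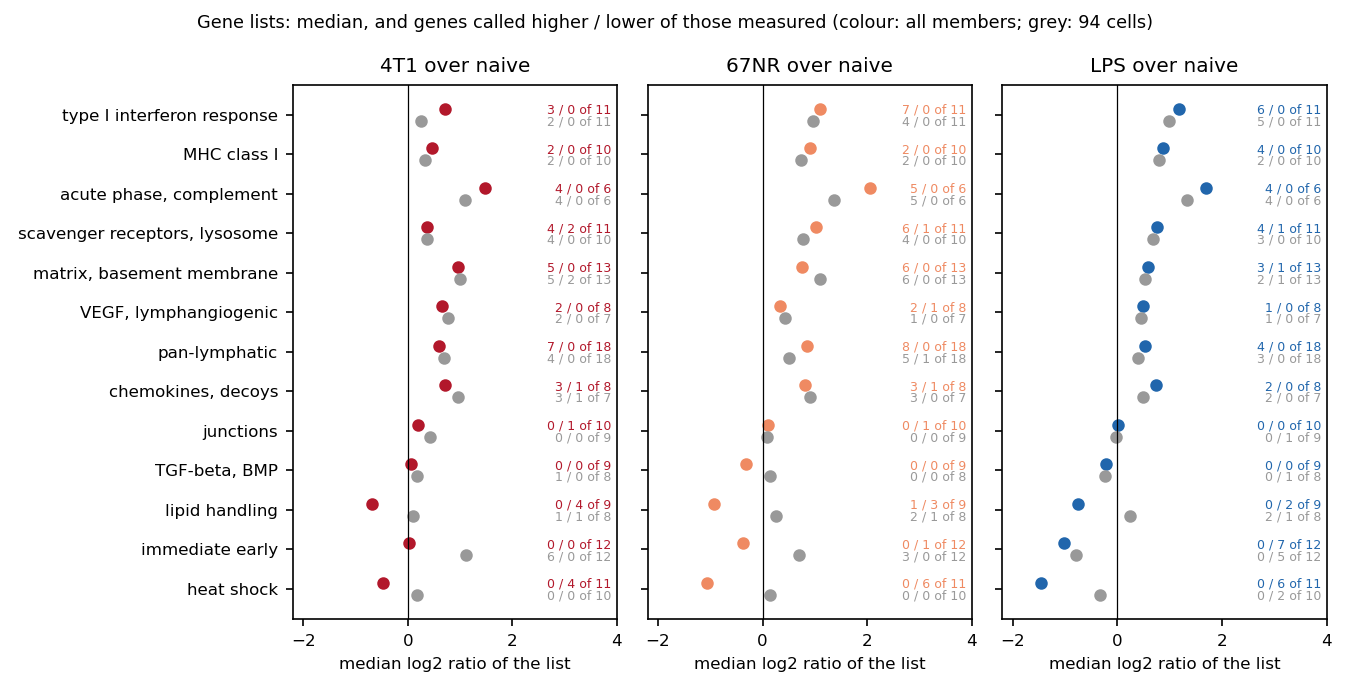
Median log2 ratio over naive of 13 gene lists, in 3 panels for 4T1, 67NR and LPS, in colour for all 108 cells and in grey for the 94 cells, with the number of genes called higher and lower of those measured at the right. Complement and matrix lists kept medians of 0.54 or more for both sets of cells, whereas heat shock, lipid and immediate early lists shifted between them.

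By the naming rule, which leaves out genes with over 25% of the UMIs of the higher group in 1 cell, the 12 highest ratios in 4T1 belonged to Pdpn, Serpinb9, Cmah, Gpr182, Atp11b, Sema3f, Vps4b, Lman2, Rpn1, Ackr2, Slc9a9 and Zbp1, from 4.40 to 2.27. In 67NR they belonged to Serpinb9, Pdpn, Glipr2, Ltc4s, Atp11b, Thbs1, Cmah, Zbp1, Slc9a9, Gpr182, Lyve1 and Serpinb6b, from 4.74 to 2.78, and in LPS to Cxcl10, Serpinb9, Ltc4s, Atp11b, Irf7, Glipr2, Rpn1, Zbp1, Gkap1, Lman2, Alcam and Vps4b, from 4.82 to 2.48. Serpinb9, an inhibitor of granzyme B, had 35 UMIs in 16 of 25 4T1 cells, 122 in 27 of 45 67NR cells and 34 in 13 of 25 LPS cells, against 1 UMI in naive cells. Its ratios were 3.91 (1.34 to 9.25), 4.74 (2.24 to 10.06) and 3.87 (1.29 to 9.21). Ltc4s, the synthase of leukotriene C4, had 3.77 (1.88 to 6.83) in 67NR and 3.59 (1.67 to 6.67) in LPS. Sema3f, a ligand of Nrp2, had 2.99 (1.57 to 4.90) in 4T1. Pdpn, Serpinb9, Glipr2, Atp11b and Cxcl10 each had 1 naive UMI, and their intervals are wide. Ly6a, a surface protein that interferon induces, was more abundant, with 910 CPM in 4T1, 1514 in 67NR and 1310 in LPS, against 276 in naive cells, and ratios of 1.72 (1.24 to 2.23), 2.46 (2.00 to 2.95) and 2.25 (1.78 to 2.75). In 4T1 1 cell held 46.9% of its UMIs.

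The 12 lowest ratios by this naming rule were smaller in size, a difference that the rule itself can make. It left out genes lower than naive where 1 naive cell held over 25% of the naive UMIs. Apoe, with 78 of its 178 naive UMIs in 1 cell, and Hspa1a, with 137 of 299, were left out in this way. In 4T1 they belonged to Glul, Stmn1, Sertad1, Kmt5b, Fam104a, Gbp4, Hnrnph1, Cnpy2, Gemin7, Cyth2, Filip1l and Polr2f, from -2.00 to -1.14, and in 67NR to Glul, Sertad1, Ptprg, Stmn1, Nsmce2, S100a6, Kmt5b, Hnrnph1, Topors, Eva1b, Fam104a and Pdcd6, from -1.56 to -1.03. Glul, glutamine synthetase, had ratios of -2.00 (-2.72 to -1.29) in 4T1 and -1.56 (-2.11 to -1.01) in 67NR, of which the second was not called among the 94 cells, at -0.93. Stmn1, a microtubule-destabilising protein, ranged from 0 to 8 UMIs in 4T1 (median 0), 0 to 10 in 67NR (median 1), 0 to 39 in LPS (median 0) and 0 to 7 in naive cells (median 2). Its ratio was -1.78 (-2.61 to -0.98) in 4T1 and -1.15 (-1.76 to -0.51) in 67NR, and 0.60 (0.04 to 1.19) in LPS. In LPS the lowest were Tle4, Mia2, Ddx3x, Sertad1, Lysmd3, Filip1l, Ier5, Ifi27, Lmo4, Klf2, Ccn1 and Magi3, from -1.96 to -1.26, with Tle4, a corepressor, at -1.96 (-2.89 to -1.07). Among the 94 cells Fxyd6, a sodium pump regulator, was called lower in all 3 at -1.10, -1.08 and -1.31, and Slit2, a guidance ligand, at -3.20, -1.39 and -2.30. Both were picked after their values were seen.

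None of 9 Tgf-beta and Bmp genes and none of 6 glycolysis and hypoxia genes was called in any comparison with all cells, and of 10 junction genes 1, 1 and 0 were called lower, namely Esam. Of 13 NF-kappa B targets 1, 2 and 1 were called higher and 1, 1 and 2 lower, with medians of 0.13, 0.14 and -0.07. Of all genes compared 7.3%, 8.75% and 5.54% were called higher and 2.77%, 3.75% and 4.59% lower. With the 94 cells 11 of these targets were measured, of which 4, 1 and 2 were called higher and 1, 0 and 0 lower, with medians of 0.84, 0.46 and 0.23. Those called higher in 4T1 were Nfkb1, Icam1, Vcam1 and Cxcl1. Of 15 proliferation genes 2 had enough UMIs to compare, Pcna and Stmn1. At 13 naive cells the intervals are wide, so a gene that was not called is not shown to be equal between conditions.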

How the data were processed

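The deposited files hold counts, whole UMIs per gene and cell barcode, which the authors obtained by aligning reads of a 10x Genomics 3' kit (per the labels' protocols) to the mouse build mm10, and for which the submitters' processing notes name Cell Ranger 7.0. The stromal library of the axillary node was used. The sources used here do not give its annotation, cell calling or dissociation. Cells with at least 500 UMIs and at most 10% mitochondrial UMIs were kept. A condition was assigned where its hashtag had a count of at least 10 and 3 times the next. No doublet caller was run, and a droplet with 2 strong hashtags was left out by this ratio. Members were taken by the rule given at the start, UMIs were summed per condition, and CPM ratios over naive were computed with exact conditional binomial 95% intervals for genes with at least 100 UMIs over the 4 sums, with no pseudocount and a floor of 3 UMIs where a sum was 0. Intervals and floors cover counting error only. The calculation was tested on simulated data. The members and the gene lists were chosen with earlier results of these data known.

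Named genes are, per comparison, the 12 highest and 12 lowest called ratios in which no cell held over 25% of the UMIs of the higher group, the 2 to 4 largest of each list, the markers and the genes of the rule. Gene models came from GENCODE and promoter windows from RefSeq, both on GRCm38, the build of mm10. Python 3.11.15, numpy 2.4.6, scipy 1.17.1, pandas 2.3.3 and matplotlib 3.10.9 were used, and R 4.3.3 with edgeR 4.0.16 for the TMM factors alone. A planned test of tumour against naive over 2 libraries was not made, since the second library held no member. Alternatives were other limits on hashtags, mitochondrial UMIs, depth and rule genes, TMM scaling, thinning and a lower UMI limit. The sets of 94 cells and of cells with at least 3 Ackr4 UMIs were added after the data were seen. Some genes that the naming rule covers are not reported here.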

Additional observations from a re-analysis of the deposited data

Results flagged for a closer look

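In the stromal library 5 barcodes met the gene rule but had no hashtag call, beside the 108 members that had one. They could be placed in no condition and entered no comparison.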

How the results depend on the processing

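Of 419 values, between 246 (thinned) and 419 could be recomputed under a setting. Turns of direction were counted only for ratios of genes called with all cells, and the 26 found are given here. Uncalled ratios and list medians were not counted, although some turned, such as Fos in 67NR without the 14 cells led by blood endothelial genes. TMM scaling and a minimum of 1000 UMIs per cell turned no called ratio and moved no value beyond the limits used. The genes called numbered 298 in 4T1, 370 in 67NR and 300 in LPS, and with genes of at least 50 UMIs 469, 583 and 452. With each cell thinned to 1000 UMIs, which left 126 genes to compare, 10, 12 and 8 were called, and among cells with at least 3 Ackr4 UMIs, where fewer cells and genes remained, 194 in 4T1, 170 in 67NR and 208 in LPS. Without the 14 cells led by blood endothelial genes the ratios of Selp, Cd34, Scarb1 and Hspa1a in 4T1 became 0.97, 1.97, 0.97 and 0.034, those of Fabp4, Scarb1 and Flt1 in 67NR 0.49, 0.94 and 1.52, and those of Cd34 and Scarb1 in LPS 0.38 and 0.70. Requiring 5 UMIs of the rule genes gave 1.18 for Selp in 4T1 and 0.37 for Fabp4 in 67NR. Among cells with at least 3 Ackr4 UMIs, Cd34, Gemin7, Lyve1, Hspa1b and Hspa1a in 4T1 became 1.36, 0.31, -0.81, 1.82 and 1.58, Fabp4, Topors, Klf4 and Ccl2 in 67NR 1.10, 0.38, 0.48 and -0.31, and Ccl2 in LPS -0.078. Thinned, Ly6a in 4T1 became -0.10, Stmn1, Ccl2 and Tapbp in 67NR 1.21, -0.054 and -0.21, and Tapbp in LPS -0.53. The cause of these turns was not tested beyond the change of cells or depth itself. Leaving out droplets whose second hashtag reached 10 gave no value, because all 108 members have one. The edgeR and DESeq2 fits over 2 libraries were not run, because the other libraries hold no member. No paired analysis was possible because each condition is 1 sum of cells. At 13 naive cells, and 9 without those led by blood endothelial genes, depth limits every ratio over naive.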
